A study of Homo sapiens with 12 samples.

Results

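The aminoacyl-tRNA synthetases are the enzymes that load each tRNA with its amino acid. Their messenger RNAs were followed in K562, an established human leukaemia cell line with erythroid features. Members were taken by name: every gene whose current symbol is 1 letter followed by ARS1 or ARS2, together with EPRS1, the phenylalanyl subunits FARSA and FARSB, and the complex proteins AIMP1, AIMP2 and EEF1E1. The rule covers 40 human genes, and 27 of them had a probe set naming no other gene, out of 11963 genes tested. No expression value entered the naming rule, except that a gene with several probe sets was read from the brightest. The choice of this gene set was made with earlier results of these data known. The 27 members were 14 of 18 cytosolic enzymes, both genes that encode a cytosolic and a mitochondrial form (GARS1 and KARS1), 10 of 17 mitochondrial enzymes, and the scaffold AIMP1 out of 3 complex proteins. Of the other 13 genes, MARS1, QARS1 and TARS2 were listed only with a further gene on the same probe set, and these and the remaining 10 were not analysed here. A filter that removed the dimmest 40% of genes would have kept 26 members. RARS2, the mitochondrial arginyl enzyme, had a mean log2 value of 2.85, at the 1.8th percentile of all genes.

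The study asked what the level of CXXC5, a CXXC zinc finger protein known as a modulator of Wnt signalling, does to K562 cells exposed to Wnt3a. All 4 groups, of 3 arrays each, received 100 ng/ml Wnt3a in medium without serum and were harvested at 8 h, so no group lacked Wnt3a. The empty vector group carried pEGFP-C2 and the overexpression group carried human CXXC5 in the same plasmid, both delivered transiently by nucleofection. The scrambled shRNA group and the CXXC5 knockdown group carried pLKO constructs from stable lentiviral infection. The labels give the knockdown samples a pair of shRNA clones without saying which sample had which, and they do not say whether replicates were separate cultures, so a p-value here reflects sample-to-sample spread alone, and that spread may be technical. The number of probe sets naming CXXC5 was 0; the CXXC5 message itself is not analysed here, and whether it moved as the sample names say was not checked. The labels describe K562 as an AML line, although it is usually described as derived from chronic myeloid leukaemia in blast crisis. Of the K562 genes looked for, 7 were measured, and they lay between the 76.7th and 99.3rd percentiles of all genes. Among 11 markers of lymphoid, fibroblast and monocyte cells, CD3D lay at the 91.4th percentile, LYZ at the 84.8th, COL1A1 at the 57.3rd and the other 8 at or below the 36.6th. With scrambled shRNA, 4 of the 7 K562 genes stood higher than with empty vector and 2 lower, as did 1 and 1 of the 11 other markers. That is 85.7% and 18.2% called, against 31.5% of all genes. After overexpression 2 of the 7 K562 genes rose and 1 fell, and CD3D at 0.38 and LYZ at 0.25 were the other markers called. After knockdown against scrambled shRNA 1 of the 7 rose and 3 fell, and CD3D at -0.35 was the other marker called. These shares of the K562 genes, 42.9% and 57.1%, stand beside 6.98% and 14.0% of all genes, and the markers' part in the results below was not tested. The third scrambled array stood apart in RNA quality. Its GAPDH signal from the 3′ end exceeded that from the 5′ end by 0.87 on the log2 scale, against 0.227 to 0.335 on the other 11 arrays, and the ACTB difference was 2.57 against 1.954 to 2.27.

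Most synthetases recognise a single amino acid and its matching tRNAs, and join them at the cost of ATP before the ribosome can use the product. Human cells hold largely separate sets for the cytosol and for the mitochondrion, where the second set serves the proteins encoded by mitochondrial DNA; both sets are made from nuclear genes. Several cytosolic enzymes sit in a multi-synthetase complex held together by AIMP proteins. Many cytosolic synthetase genes, but few mitochondrial ones, are known targets of ATF4, the transcription factor of the amino acid response, which binds a composite C/EBP-ATF element.

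Promoter sequences are shown for the members with that element, because the cytosolic and mitochondrial classes are compared below. RefSeq windows (GRCh38.p14) reaching from 250 bases before to 50 bases after the gene start were found for 24 members, all but LARS1, VARS1 and YARS1. The letters TGATGNAA were searched on both strands. They occurred in 7 of the 24 members (29.2%), against 4.46% of 27305 genes with a window. By class, the holders were 5 of 11 cytosolic members, GARS1 and 1 of 10 mitochondrial members. A match of letters describes the window and does not show that a factor binds it. The 7 matches are given 5′ to 3′ with 10 bases on each side and the element in capitals.
AARS1, chr16:70289676-70289703, + strand: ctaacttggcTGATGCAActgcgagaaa
CARS1, chr11:3057408-3057435, + strand: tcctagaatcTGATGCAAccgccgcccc
GARS1, chr7:30594835-30594862, - strand: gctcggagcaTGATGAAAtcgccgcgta
IARS1, chr9:92293693-92293720, + strand: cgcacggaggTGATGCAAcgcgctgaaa
NARS1, chr18:57621805-57621832, - strand: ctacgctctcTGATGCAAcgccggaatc
TARS1, chr5:33440957-33440984, - strand: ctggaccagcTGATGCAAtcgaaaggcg
YARS2, chr12:32756077-32756104, - strand: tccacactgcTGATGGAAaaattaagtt
The same TGATGCAA letters stood in AARS1, CARS1, IARS1, NARS1 and TARS1. The matches of AARS1 and YARS2 began 187 and 197 bases before the gene start. Those of the other 5 lay within 33 bases of it, on either side.

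The genes of the histidyl enzymes, cytosolic HARS1 and mitochondrial HARS2, start head to head on opposite strands of chromosome 5, and the 84 bases between their RefSeq starts are shown because HARS2 recurs in the results. The ETS core CCGGAAGT, searched on both strands and present in 4.95% of genes with a window, stood at both ends of this stretch and is capitalised.
HARS1 and HARS2, chr5:140691371-140691454, + strand: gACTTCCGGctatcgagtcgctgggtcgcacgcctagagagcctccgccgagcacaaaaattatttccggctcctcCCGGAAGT
The promoter windows of these neighbours share 184 bases.

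The synthetases differed little between the groups. Log2 group means of a member spanned a median of 0.19 from the lowest group to the highest, against 0.25 over all genes, and 0 of 27 members spanned 1 log2 unit or more, against 135 of 11963 genes. The span was under 0.2 for 14 members and for 4402 genes. Arrays of a group also lay close together, with a median SD of 0.064 over the members and 0.111 over all genes. AARS1, the alanyl enzyme, had the widest span, 0.46, and KARS1 and TARS1, the lysyl and threonyl enzymes, the narrowest, 0.04. The scrambled group had the lowest mean for 14 members, among them 7 of the 10 mitochondrial enzymes. The knockdown group had the highest for 11. Of all 11963 genes, 3512 were lowest and 4059 highest in the scrambled group, and 2591 were highest in the knockdown group.

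**Figure D1:**
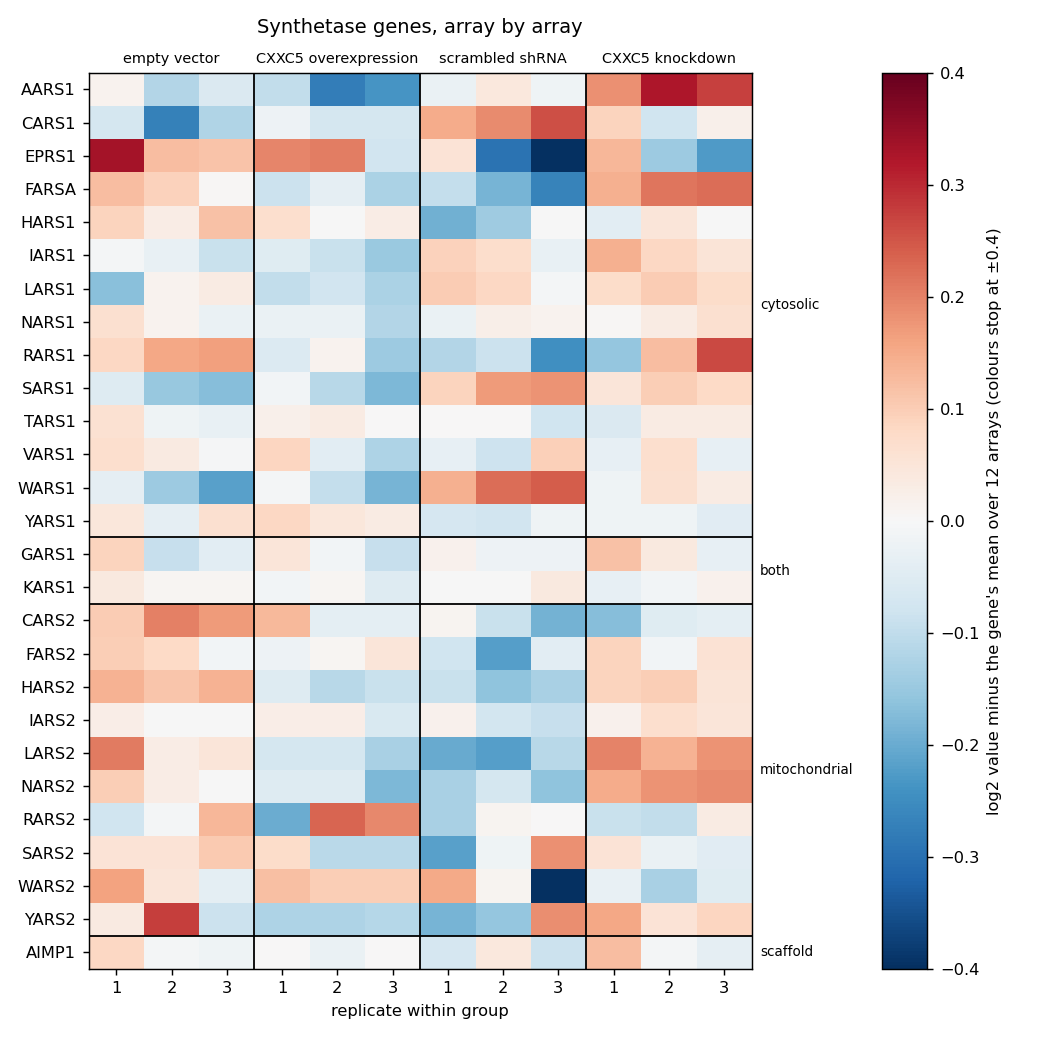
Heat map of the 27 members (rows, by class) on the 12 arrays (columns, by group), coloured by the log2 value minus the gene's mean over all arrays, with colours ending at ±0.4. Several mitochondrial rows, such as HARS2, LARS2 and NARS2, are low on the scrambled and overexpression arrays and high on the empty vector and knockdown arrays, while the KARS1 and TARS1 rows are nearly without colour.

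CXXC5 overexpression against empty vector asked what added CXXC5 does. On the brightest probe sets, synthetase messages stayed within 0.21 log2 units of the control. HARS2 was the only 1 of 27 members to pass limma's test at an adjusted p under 0.05, a share of 3.7% where 6.98% of all genes passed, 3.61% rising and 3.37% falling. HARS2 (NCBI gene 23438) read 9.72, 9.69 and 9.72 on the empty vector arrays and 9.53, 9.47 and 9.49 on the overexpression arrays. The groups did not overlap. The message fell by 0.21 on the log2 scale (SE 0.0505, limma adjusted p = 0.0265, n = 3 and 3). This call ended when any of the 3 empty vector arrays, or overexpression array 2 or 3, was left out, and in a fit on the 6 arrays compared, with adjusted p between 0.00665 and 0.0991 over all alternatives. In bulk RNA such as this, fewer cells making a message and less message per cell cannot be told apart.

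None of the 14 cytosolic enzymes passed the limma test after overexpression, where 6.98% of all genes did. Unadjusted p was under 0.05 for 2 of the 14, against 2442 of 11963 genes. RARS1, the arginyl enzyme, had the largest cytosolic difference. It read 11.09, 11.16 and 11.17 with empty vector and 10.95, 11.02 and 10.86 with overexpression, a log2 difference of -0.19 (SE 0.0956, limma adjusted p = 0.286). FARSA, the catalytic subunit of the cytosolic phenylalanyl enzyme, read 9.54, 9.51 and 9.42 with empty vector and 9.33, 9.38 and 9.29 with overexpression. In both genes every overexpression array lay below every empty vector array, but neither difference passed across all genes (FARSA: -0.16, SE 0.062, limma adjusted p = 0.176). Of all members, 20 of 27 had negative differences and the median was -0.0523, against 0.00133 over all genes. The cytosolic median was -0.0552 and the mitochondrial median -0.126. Groups did not overlap for 8 members, 1 above and 7 below, where 27.9% of all genes did not overlap, 1507 above and 1834 below. GARS1 and KARS1 differed by -0.01 and -0.04, and AIMP1 by -0.03. The other AIMP1 probe set gave -0.23 (limma adjusted p = 0.127 over all probe sets).

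CXXC5 knockdown against scrambled shRNA asked the reverse question within the lentiviral arm. Here 5 of 27 members rose and 0 fell, 18.5% against 14.0% of all genes called in either direction, 8.79% that rose and 5.22% that fell. The risers were cytosolic FARSA and AARS1 and mitochondrial LARS2, NARS2 and HARS2, which attach leucine, asparagine and histidine. The increases ran from 0.21 to 0.37 log2 units.

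FARSA (NCBI gene 2193) read 9.32, 9.23 and 9.15 on the scrambled arrays and 9.56, 9.63 and 9.64 on the knockdown arrays. Its mean went from 9.24 ± 0.08 to 9.61 ± 0.04 (SD, n = 3), a rise of 0.37 (SE 0.062, limma adjusted p = 0.00199), or 1.3-fold. The gene's other probe set, with a mean of 8.87, rose by 0.27 (limma adjusted p = 0.0212 over all probe sets). LARS2 (NCBI gene 23395) read 9.22, 9.20 and 9.31 with scrambled shRNA and 9.62, 9.56 and 9.60 with knockdown. It rose by 0.35 (SE 0.0622, limma adjusted p = 0.00316), and its other probe set by 0.31. NARS2 (NCBI gene 79731) read 9.71, 9.74 and 9.75 with knockdown. The scrambled arrays gave 9.43, 9.49 and 9.40, and the rise was 0.29 (SE 0.0592, limma adjusted p = 0.00643). None of these 3 genes overlapped between the groups, and none lost its call under an alternative normalisation or filter or with any array left out.

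AARS1 (NCBI gene 16) read 10.56, 10.63 and 10.57 with scrambled shRNA and 10.77, 10.91 and 10.86 with knockdown, where all 3 values were above the other 9 arrays of the study. It rose by 0.26 (SE 0.0664, limma adjusted p = 0.0215). The call ended without scrambled array 1 or knockdown array 2 or 3 and in a fit on the 6 arrays compared, with adjusted p from 0.00278 to 0.0787 over all alternatives. HARS2 read 9.49, 9.42 and 9.45 with scrambled shRNA and 9.67, 9.68 and 9.63 with knockdown, a rise of 0.21 (SE 0.0505, limma adjusted p = 0.0178). It lost the call without scrambled array 2 or knockdown array 1 or 2, in a fit on the 6 arrays compared and after quantile normalisation, with adjusted p from 0.0045 to 0.0859 over all alternatives. All 5 genes also rose without the third scrambled array, with AARS1 at 0.25 (limma adjusted p = 0.0478), FARSA at 0.33, LARS2 at 0.38, NARS2 at 0.27 and HARS2 at 0.21.

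Among members that did not pass after knockdown, the largest differences were 0.22 for RARS1 (limma adjusted p = 0.153), -0.19 for CARS1, the cysteinyl enzyme (0.0816), and -0.18 for WARS1, the tryptophanyl enzyme (0.104). GARS1 differed by 0.05, KARS1 by -0.02 and AIMP1 by 0.06, while the other AIMP1 probe set gave 0.22 (limma adjusted p = 0.0942 over all probe sets). Over all members 22 of 27 differences were positive, with a median of 0.0483 against -0.00911 over all genes. The mitochondrial median was 0.12 and the cytosolic median 0.0301. Groups did not overlap for 9 members, 7 above and 2 below, where 32.4% of all genes did not overlap, 2183 above and 1696 below.

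**Figure D2:**
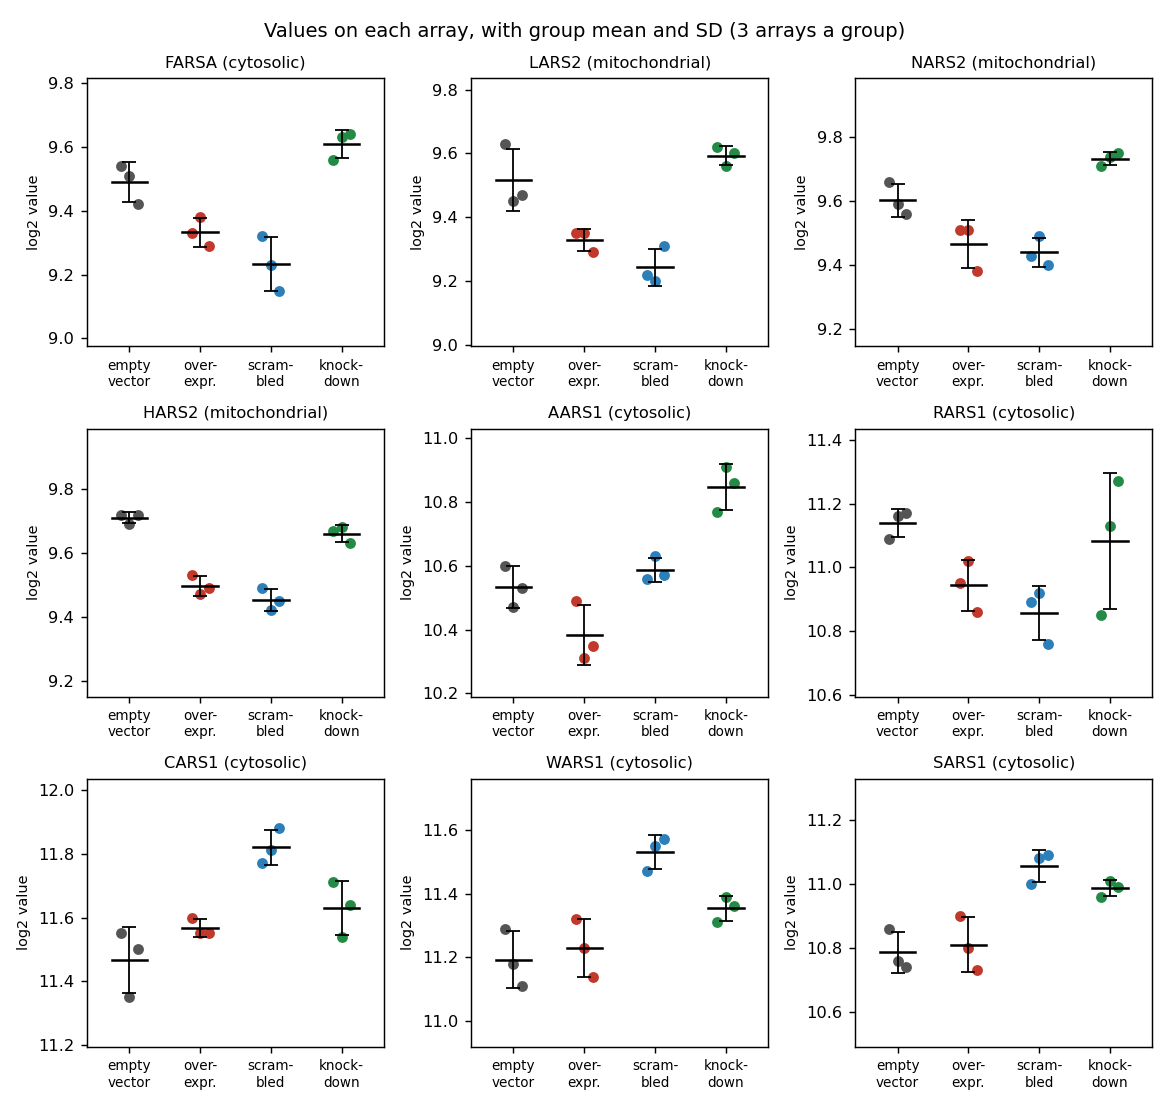
Log2 value on each array (points), with group mean and SD (bars, 3 arrays a group), for 9 members with a called change; all panels span the same log2 range. In the FARSA, LARS2, NARS2 and HARS2 panels the overexpression and scrambled points lie below the empty vector and knockdown points, and the AARS1 knockdown points lie above all others.

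The effect of overexpression was then set against the effect of knockdown in 1 contrast, each against its own control, so that no array entered both. A negative value means that a gene moved lower with overexpression than with knockdown. The contrast was called for 7 of 27 members (25.9%) and for 20.4% of all genes, with 6 members negative where 12.3% of genes were, and 1 positive where 8.15% were. FARSA gave -0.53 (SE 0.0876, limma adjusted p = 0.00123), from -0.16 with overexpression and 0.37 with knockdown. LARS2 gave -0.53 (SE 0.088, limma adjusted p = 0.00122), from -0.18 and 0.35. NARS2 gave -0.43 (SE 0.0837, limma adjusted p = 0.00338) and HARS2 -0.42 (SE 0.0714, limma adjusted p = 0.00147). AARS1 gave -0.41 (SE 0.0939, limma adjusted p = 0.00909), from -0.15 and 0.26.

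These 5 contrasts held with each array left out and under every alternative normalisation and filter run. In HARS2 both arms were called on their own, in opposite directions. In the other 4 genes the knockdown arm alone was called. RARS1 at -0.41 (SE 0.135, limma adjusted p = 0.0488) and CARS1 at 0.29 (SE 0.0962, limma adjusted p = 0.0495) passed narrowly. RARS1 lost the call when any of 11 of the 12 arrays was left out and after quantile normalisation or median centring (adjusted p from 0.00493 to 0.109 over all alternatives). CARS1 lost it when any of 10 arrays was left out (0.00681 to 0.122). Without the third scrambled array both dropped out and YARS2, the mitochondrial tyrosyl enzyme, came in at -0.46 (limma adjusted p = 0.022). The members' median contrast was -0.101, against 0.022 over all genes. It was -0.0917 for the cytosolic and -0.178 for the mitochondrial enzymes. AIMP1 gave -0.09 and was not called, but its other probe set gave -0.44 and was (limma adjusted p = 0.0147 over all probe sets).

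The controls themselves differed. Scrambled shRNA against empty vector compares stable lentiviral infection with transient nucleofection as well as the constructs, and these cannot be told apart. Of 27 members, 10 were called (37%), 3 higher and 7 lower with scrambled shRNA, while 31.5% of all genes were called, 16.2% higher and 15.3% lower. CARS1, WARS1 and SARS1, the seryl enzyme, were higher. The lower members were cytosolic EPRS1, RARS1, FARSA and HARS1 and mitochondrial LARS2, HARS2 and CARS2.

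CARS1 read 11.55, 11.35 and 11.50 with empty vector and 11.77, 11.81 and 11.88 with scrambled shRNA. It was higher by 0.36 (SE 0.068, limma adjusted p = 0.00225), and the gene's other probe set by 0.31 (limma adjusted p = 0.0263). WARS1, which is also known for its induction by interferon gamma, read 11.29, 11.18 and 11.11 against 11.47, 11.55 and 11.57. The difference was 0.34 (SE 0.0671, limma adjusted p = 0.00293), while its other probe set gave 0.19 and did not pass (limma adjusted p = 0.0899). SARS1 read 10.86, 10.76 and 10.74 with empty vector and 11.00, 11.08 and 11.09 with scrambled shRNA, a difference of 0.27 (SE 0.062, limma adjusted p = 0.00715). In all 3 genes each scrambled array lay above each empty vector array.

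EPRS1, which charges both glutamate and proline tRNAs, had the largest difference. It read 11.66, 11.45 and 11.44 with empty vector and 11.38, 11.03 and 10.91 with scrambled shRNA, a difference of -0.41 (SE 0.133, limma adjusted p = 0.0333). Its other probe sets gave -0.13 and 0.13, neither called, and the call ended with the mean over its probe sets and without empty vector array 1 or 2 or scrambled array 2 or 3 (adjusted p from 0.00282 to 0.331 over all alternatives). RARS1 read 10.89, 10.92 and 10.76 with scrambled shRNA, below its empty vector arrays, by -0.28 (SE 0.0956, limma adjusted p = 0.0436), and lost the call when any of the 6 arrays compared was left out and after median centring (adjusted p from 0.0112 to 0.136 over all alternatives).

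LARS2 read 9.63, 9.45 and 9.47 with empty vector, all above the scrambled arrays given earlier, and differed by -0.27 (SE 0.0622, limma adjusted p = 0.00682). Its other probe set gave -0.31. HARS2 differed by -0.26 (limma adjusted p = 0.00266) and FARSA by -0.25 (0.00924). CARS2, the mitochondrial cysteinyl enzyme, read 7.83, 7.93 and 7.90 against 7.74, 7.64 and 7.54. Its difference was -0.25 (SE 0.0726, limma adjusted p = 0.0214), and the call ended without empty vector array 2 or 3 or scrambled array 2 or 3 and after quantile normalisation (adjusted p up to 0.0761). HARS1 read 10.16, 10.10 and 10.19 against 9.88, 9.93 and 10.07, a difference of -0.19 (SE 0.0618, limma adjusted p = 0.0363), and lost the call when any empty vector array or scrambled array 1 or 2 was left out, under both other scalings and in a fit on the 6 arrays compared (adjusted p up to 0.119).

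Without the third scrambled array, 8 members were called in this comparison. CARS2, EPRS1 and RARS1 dropped out, at -0.20, -0.31 and -0.23, and FARS2, the mitochondrial phenylalanyl enzyme, came in at -0.21 (limma adjusted p = 0.0338). FARS2 was uncertain in another way, since its 3 probe sets disagreed: the brightest gave -0.17, the next, with a mean of 8.36, gave 0.11, and the dimmest, with a mean of 4.21, gave 0.45. The dimmest alone passed the limma test over all probe sets. AIMP1 was likewise split: its brightest probe set gave -0.05, and the other, with a mean of 9.89, gave -0.41 (limma adjusted p = 0.00211). GARS1 and KARS1 differed by 0.01 and -0.01. Groups did not overlap for 12 members, 3 above and 9 below, where 45.7% of all genes did not overlap, 2852 above and 2620 below.

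**Figure D3:**
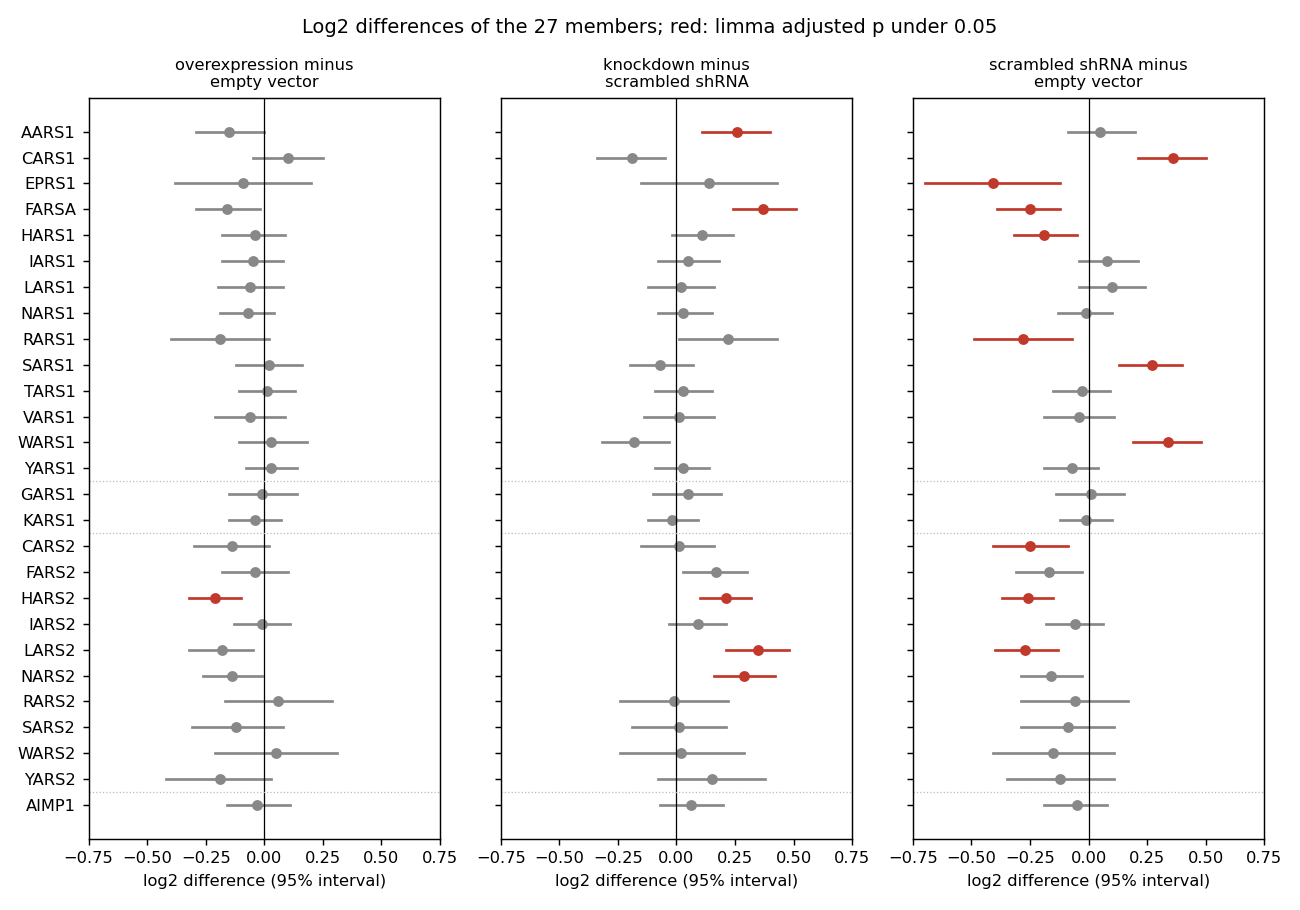
Log2 differences of the 27 members with 95% intervals (points and lines), 1 panel a comparison, red where limma's adjusted p was under 0.05. The overexpression panel has 1 red point, HARS2; the knockdown against scrambled panel has 5, all to the right; the scrambled against empty vector panel has 10, 3 to the right and 7 to the left.

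The scrambled arrays serve in both of the last comparisons, knockdown against scrambled and scrambled against empty vector, so a scrambled value enters both differences with opposite sign. The empty vector arrays are likewise subtracted in every comparison against empty vector. Like signs after overexpression and with scrambled shRNA are therefore not independent of each other. The 4 group means are therefore given side by side. In the order empty vector, overexpression, scrambled and knockdown, FARSA had means of 9.49, 9.33, 9.24 and 9.61. LARS2 had 9.51, 9.33, 9.24 and 9.59. NARS2 had 9.60, 9.47, 9.44 and 9.73, and HARS2 had 9.71, 9.50, 9.45 and 9.66. In all 4 genes the scrambled group was the lowest and the overexpression group next. AARS1 had 10.53, 10.39, 10.59 and 10.85, so that its scrambled mean lay near that of the empty vector (difference 0.05, limma adjusted p = 0.564).

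Knockdown against empty vector, which again joins construct and delivery, called 1 of 27 members (3.7%), against 4.54% of all genes, 3.02% higher and 1.52% lower. The member was AARS1, which read 10.60, 10.47 and 10.53 with empty vector and was higher by 0.31 with knockdown (SE 0.0664, limma adjusted p = 0.0245). The call ended without empty vector array 2 or 3 or knockdown array 2 or 3 and in a fit on the 6 arrays compared, with adjusted p from 0.00225 to 0.109 over all alternatives. FARSA, LARS2, NARS2 and HARS2, called against scrambled shRNA, differed from empty vector by 0.12, 0.08, 0.13 and -0.05, none called. No mitochondrial enzyme passed the limma test. Unadjusted p was under 0.05 for 2 of the 10, against 2742 of 11963 genes. CARS2 had the largest mitochondrial difference. Its knockdown arrays read 7.56, 7.68 and 7.69, at -0.24 (SE 0.0726, limma adjusted p = 0.0776). Groups did not overlap for 10 members, 7 above and 3 below, where 30.0% of all genes did not overlap, 2088 above and 1497 below. The members' median was 0.00787, against 0.0134 over all genes.

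The cytosolic and mitochondrial sets were then compared over the 4 groups by the median, on each array, of the members' deviations from their own means over all 12 arrays. The 10 mitochondrial enzymes gave 0.098, 0.052 and 0.022 with empty vector and -0.033, -0.043 and -0.072 with overexpression. With scrambled shRNA they gave -0.113, -0.081 and -0.099, the lowest 3 of the study, and with knockdown 0.070, 0.024 and 0.046. The median mitochondrial member was thus below its mean on every overexpression and scrambled array and above it on every other array. The 14 cytosolic enzymes gave 0.053, -0.002 and -0.014 with empty vector and -0.016, -0.040 and -0.125 with overexpression. They gave -0.014, 0.011 and -0.009 with scrambled shRNA and 0.028, 0.066 and 0.043 with knockdown. The cytosolic median minus the mitochondrial median was 0.099, 0.092 and 0.090 on the scrambled arrays and between -0.054 and 0.042 on the other 9, without overlap. On the brightest probe sets all 10 mitochondrial enzymes had a negative scrambled against empty vector difference. Their median was -0.157 (-0.114 after quantile normalisation and -0.134 after median centring), but 3 were called, 30% where 31.5% of all genes were. The shared sign had limits. RARS2, at -0.06, lay at the 1.8th percentile of all genes, and its other probe set gave 0.03. WARS2 stood at 0.02 without the third scrambled array, and the other FARS2 probe sets gave 0.11 and 0.45. The 14 cytosolic enzymes had a median of -0.0231 with 3 higher and 4 lower (50% called). The median over all genes was 0.0172, with 16.2% higher and 15.3% lower. The median of the mitochondrial enzymes kept its sign under each of these scalings in the overexpression and knockdown comparisons as well.

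**Figure D4:**
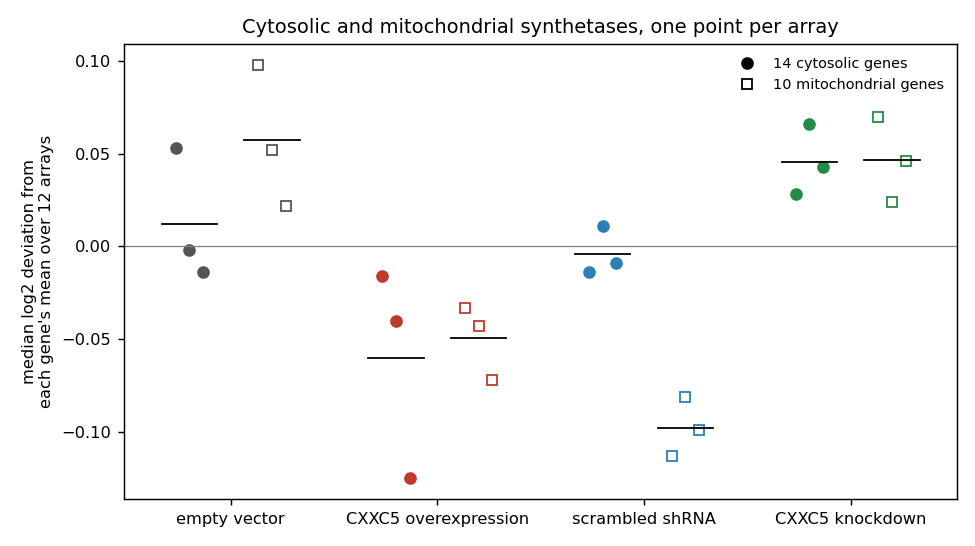
Median log2 deviation of 14 cytosolic (filled) and 10 mitochondrial (open) enzymes from each gene's mean over 12 arrays, 1 point an array, by group, with group means as bars. The open points of the scrambled group, -0.113 to -0.081, are the lowest mitochondrial values, while the filled points of that group lie near 0.

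Both enzymes were measured for 10 amino acids. After knockdown against scrambled shRNA the differences had the same sign in 6 pairs. The cytosolic enzyme alone passed in 1 pair, phenylalanine, and the mitochondrial enzyme alone in 3, histidine, leucine and asparagine. LARS1 differed by 0.02 where LARS2 rose by 0.35, and NARS1 by 0.03 where NARS2 rose by 0.29. These paired differences were not tested against each other. The only LARS1 probe set is of a type that can match several transcripts, a type used for 9 of the 27 members. HARS1 differed by 0.11 (limma adjusted p = 0.274) where its head-to-head neighbour HARS2 rose by 0.21. The histidyl pair had like signs in all 5 comparisons, although HARS1 was called only with scrambled shRNA against empty vector. With scrambled shRNA against empty vector, both enzymes passed in 2 pairs: HARS1 and HARS2 were both lower, whereas CARS1 was higher by 0.36 and CARS2 lower by 0.25. The tryptophanyl and seryl pairs also had opposite signs there, with WARS2 at -0.15 and SARS2 at -0.09, neither called. The WARS2 value leaned on the third scrambled array, which read 7.06 while its other 11 arrays lay between 7.37 and 7.66, and without it the difference was 0.02.

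The 12 cytosolic or dual members known as ATF4 targets were set beside the 4 that are not (FARSA, HARS1, RARS1 and KARS1). In the comparison of the controls, 3 of these 12 were higher with scrambled shRNA and 1 lower, with a median of 0.0308. That is 33.3% called, close to the 31.5% of all genes. Of the 4 others, 0 were higher and 3 lower, with a median of -0.22. Over all genes 16.2% were higher and 15.3% lower. After knockdown against scrambled shRNA 1 of the 12 rose (AARS1) and 1 of the 4 (FARSA), beside 8.79% of all genes. The split by promoter letters shares members with this one. Of the 7 members with the TGATGNAA element, 1 was higher (CARS1) and 0 lower with scrambled shRNA, with a median of 0.007. Of the 17 with a window but without the element, 2 were higher and 7 lower, with a median of -0.162, again beside 16.2% and 15.3% of all genes. The difference between these sets was not tested.

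The 6 measured members of the multi-synthetase complex, EPRS1, LARS1, IARS1, RARS1, KARS1 and AIMP1, are described next. After overexpression all 6 differences were negative on the brightest probe sets, between -0.19 and -0.03, although another EPRS1 probe set gave 0.10. Here limma called 0, none of them with an unadjusted p under 0.05, where 6.98% of all genes were called. After knockdown against scrambled shRNA limma called 0, with 1 at an unadjusted p under 0.05, where 14.0% of all genes were called. Unadjusted p was under 0.05 for 2442 and 3363 of 11963 genes in these comparisons. With scrambled shRNA against empty vector EPRS1 and RARS1 were lower, 33.3% called against 31.5% of all genes. IARS1 and LARS1 stood at 0.08 and 0.10, neither called. KARS1, which also supplies the mitochondrion, read between 13.24 and 13.33 on all 12 arrays. Its knockdown against scrambled difference had a 95% interval of -0.12 to 0.09. TARS1 read between 11.91 and 12.05, and the same interval for it was -0.09 to 0.15. GARS1, the glycyl enzyme, read between 12.13 and 12.34.

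Other genes of the tRNA and amino acid pathways are given for comparison, from lists chosen by function. Over all genes, 8.79% rose and 5.22% fell after knockdown against scrambled shRNA, and 3.61% rose and 3.37% fell after overexpression. With scrambled shRNA against empty vector 16.2% of all genes were higher and 15.3% lower. Of 22 genes for tRNA processing and export, 7 rose and 0 fell after knockdown against scrambled shRNA (31.8% called), with a median of 0.13. After overexpression limma called 0 of them, 5 with an unadjusted p under 0.05, against 2442 of 11963 genes. The largest rises were those of PUS1, a tRNA pseudouridine synthase, at 0.45, ADAT1, a tRNA adenosine deaminase, at 0.41, and POP1, an RNase P subunit, at 0.35. With scrambled shRNA against empty vector 1 was higher and 11 lower, 54.5% called against 31.5% of all genes, with a median of -0.151. POP1 was at -0.67 and PUS1 at -0.47. In the difference of the overexpression and knockdown effects 0 of the 22 were called positive and 9 negative, with a median of -0.207. That is 40.9% called, against 20.4% of all genes, 8.15% positive and 12.3% negative. Of 11 mitochondrial translation factors, 2 rose after knockdown against scrambled shRNA, 18.2% where 14.0% of all genes were called. They were MRPL58, a peptidyl-tRNA hydrolase of the mitochondrial ribosome, at 0.26 and TSFM, an elongation factor, at 0.19. MRPL58 fell by 0.35 after overexpression. With scrambled shRNA against empty vector 3 of these 11 were lower and 1 higher, 36.4% where 31.5% of all genes were called. The lower ones included GATC at -0.49 and QRSL1 at -0.25, subunits of the amidotransferase that completes mitochondrial glutaminyl-tRNA. TUFM was higher at 0.27.

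Other than synthetases, 31 genes of the ATF4 and amino acid response were measured. With scrambled shRNA against empty vector 13 were higher and 2 lower, 48.4% called against 31.5% of all genes, with a median of 0.209. They included GDF15, a stress-induced cytokine, at 2.09, and DDIT3, the stress transcription factor CHOP, at 1.10, where the largest synthetase difference was that of EPRS1 at -0.41. After knockdown against scrambled shRNA 5 rose and 3 fell (25.8% called, against 14.0% of all genes), with GDF15 falling by 1.29 and ATF5 rising by 0.44. The median there was -0.0006. The knockdown arrays also stood above the empty vector arrays for this list, by a median of 0.186, with 28 positive differences and 3 negative. Limma called 8 upward and 0 downward, a share of 25.8% beside 4.54% for the whole gene set. After overexpression 3 rose and 1 fell (12.9% called, against 6.98% of all genes). Of 8 cytosolic elongation and termination factors, limma called 0 after overexpression and 0 after knockdown against scrambled shRNA. Unadjusted p was under 0.05 for 1 and 3 of them, against 2442 and 3363 of 11963 genes. With scrambled shRNA against empty vector EIF5A2 was lower at -0.47 and GSPT1 at -0.32, 25% called against 31.5% of all genes.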

How the data were processed

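RNA from 12 K562 samples was hybridised to Affymetrix 3′ expression arrays from 500 ng of total RNA each. The authors deposited 1 value per probe set and array, made with Affymetrix Expression Console per the submitters' processing notes. Neither version nor summarisation is given in the sources used here. Values as deposited run from 2.07 to 14.4 with array medians of 6.64 to 6.70 and were taken as log2 from that range, with no further normalisation. Of 22277 probe sets, 62 were controls, 19064 were paired with 1 gene symbol, 1043 with several and 2108 with none. Gene IDs of 19052 matched RefSeq (GRCh38.p14). The probe set with the highest mean stood for each of 11963 genes, of which 4310 had more than 1. Levels were not compared between probe sets. The number of arrays limits the precision.

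All 12 arrays entered 1 model in limma 3.58.1 (R 4.3.3) with a coefficient per group and 8 residual degrees of freedom. P-values of moderated two-sided tests were adjusted by the Benjamini-Hochberg method over all genes, and a gene was called at an adjusted p under 0.05. An error after a fitted difference is the model's standard error. The model was tested on simulated data.

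The members and comparison lists were chosen with earlier results of these data known. Named with values were up to 6 called members with the largest change per comparison, up to 2 per class where none was called, partners for the same amino acid, and up to 3 called genes per comparison list; further members, chosen after their values were seen, are those whose probe sets disagreed, the remaining called members and the flattest members. Alternatives were quantile normalisation, median centring, removal of the dimmest 40% of genes, the mean over probe sets, other probe sets, a trended robust prior, array weights, the replicate number as a block, fits on the 6 arrays compared, a threshold of 0.01 and leaving out each array. Arrays of a group correlated at 0.996 to 0.998.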

Additional observations from a re-analysis of the deposited data

How the results depend on the processing

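The number of arrays, 3 a group, limits which differences could be called. Of 24 calls among the members, 14 were kept in every setting run, other probe sets aside, and 10 were lost without at least 1 array. Whether replicate numbers pair the arrays is undecided: 10 of 18 same-number pairs, not all, deviated together at r over 0.1 (range -0.12 to 0.39), 7 of 12 arrays were closest to their own number, and the labels name nothing that the numbers share. With the replicate number as a block the counts stayed at 1 for overexpression, 5 for knockdown against scrambled shRNA, 7 for the difference of effects, 10 for scrambled shRNA against empty vector and 1 for knockdown against empty vector, and no call of a member changed. Without the dimmest 40% of genes, the counts were 2 for overexpression (15.3% of all genes tested), 8 for knockdown against scrambled shRNA (28.8%) and 3 for knockdown against empty vector (9.74%). On the 6 arrays compared they were 0 (4.87%), 3 (8.51%) and 0 (2.01%). At an adjusted p under 0.01 they were 0 (2.73%), 3 (6.55%) and 0 (0.894%), with 6 (17.4%) for scrambled shRNA against empty vector. Knockdown against empty vector gave 2 (7.34%) under the trended robust prior and 3 (13.2%) with array weights. With each array left out in turn, counts ran from 0 to 1 for overexpression, 3 to 5 for knockdown against scrambled shRNA, 5 to 7 for the difference, 6 to 11 for scrambled shRNA against empty vector and 0 to 1 for knockdown against empty vector. The median knockdown change of the mitochondrial enzymes was 0.087 after quantile normalisation, 0.149 without the dimmest genes and 0.058 with the mean of probe sets; their median difference of effects was -0.110, -0.209 and -0.137 in the same settings, and their scrambled against empty vector median -0.114 after quantile normalisation. The cytosolic difference of effects was -0.056 after quantile normalisation. With each array left out, the overexpression median ran from -0.072 to -0.017 (cytosolic) and -0.167 to -0.089 (mitochondrial), and the mitochondrial medians from 0.087 to 0.156 for knockdown, -0.236 to -0.152 for the difference and -0.203 to -0.138 for scrambled shRNA against empty vector. Other probe sets reversed FARS2, to -0.34 for knockdown, 0.45 for the difference and 0.45 for scrambled shRNA against empty vector, and EPRS1, to 0.13 in the last. In each other comparison 1 of the other EPRS1 probe sets, not called, also had the opposite sign, at -0.18 for knockdown against scrambled shRNA, 0.28 for the difference, 0.10 for overexpression and 0.21 for knockdown against empty vector. The cause of these changes was not tested.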
